A study of Mus musculus with 6 samples.

Results

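The genes described here are the 6 subunits of the replicative helicase (Mcm2, Mcm3, Mcm4, Mcm5, Mcm6 and Mcm7), the sliding clamp Pcna and the 3 D-type cyclins (Ccnd1, Ccnd2 and Ccnd3). The 10 symbols were taken from a fixed list, chosen with earlier results of these data known, and were matched by Ensembl gene ID. All 10 were found in both deposited tables, among 12666 genes in the table that holds both ages and 13606 in the other. Kidneys of wild-type mice were profiled by RNA-seq of total RNA in a study of natural aging, at an age labelled 24M (4 libraries) and an age labelled 2M (2 libraries). Strain, sex and treatment are not stated in the sources used here, and whether each library is a different animal is not stated either. A p-value here thus reflects the spread among these particular libraries, possibly a technical one. Values are FPKM (fragments scaled by transcript length and library size), a scale that allows levels to be compared between genes of different length. Change with age was tested between 24M_1 and 24M_2 and the 2M libraries, which share a table. The levels of 24M_3 and 24M_4 come from a table made separately and are set beside the others without a test.

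Before a cell can copy its DNA, the Mcm2 to Mcm7 complex is loaded onto replication origins in G1 phase, a step known as licensing, and it later unwinds the DNA at the fork. Pcna is the ring that holds DNA polymerases on the template, and it also serves repair. D-type cyclins bind Cdk4 or Cdk6, and these kinases phosphorylate the retinoblastoma protein Rb1 and so release E2F transcription factors, whose known targets include the Mcm genes and Pcna. Most tubule cells of an adult kidney are not cycling, and licensing factors are known to be low in such cells.

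The 7 markers of kidney tubule segments, such as Umod and Slc34a1, were present in every library with summed levels of 1387 to 1880 FPKM. No step worth 1 read could be recovered from the low values, so depth is unknown. Of 11437 genes tested with limma, 180 passed an FDR of 0.05, and limma called 0 genes without 2M_1 and 0 without 2M_2, where 1215 and 1452 had an unadjusted p below 0.05. Among genes in both tables, 63.7% were higher in 24M_3 than in 24M_4. Because the tissue is a mixture, fewer cells of a type and less RNA per cell cannot be told apart.

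None of the 10 genes passed the threshold in 24M kidney, where 1.57% of all genes tested did. At an unadjusted p below 0.05, 4 genes (Mcm3, Mcm5, Mcm7 and Ccnd1) were lower in 24M and 1 (Ccnd3) was higher, against 9.94% lower and 6.96% higher over all genes tested. For 6 of the 10 genes both 24M libraries of the tested table lay below both 2M libraries, against 29.6% of all genes tested, and for Ccnd3 both lay above, against 20.8%. The median log2 change of the 10 genes was -0.21 on the log2(FPKM + 1) scale, against -0.02 over all genes tested. Mcm5 reached the minimum of 1 FPKM in the 2M libraries alone, so passing the filter in this way required it to be lower in 24M. Without Mcm5, 5 genes lay lower without overlap, and the share over tested genes that did not pass through 1 age alone was 28.8%.

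**Figure D1:**
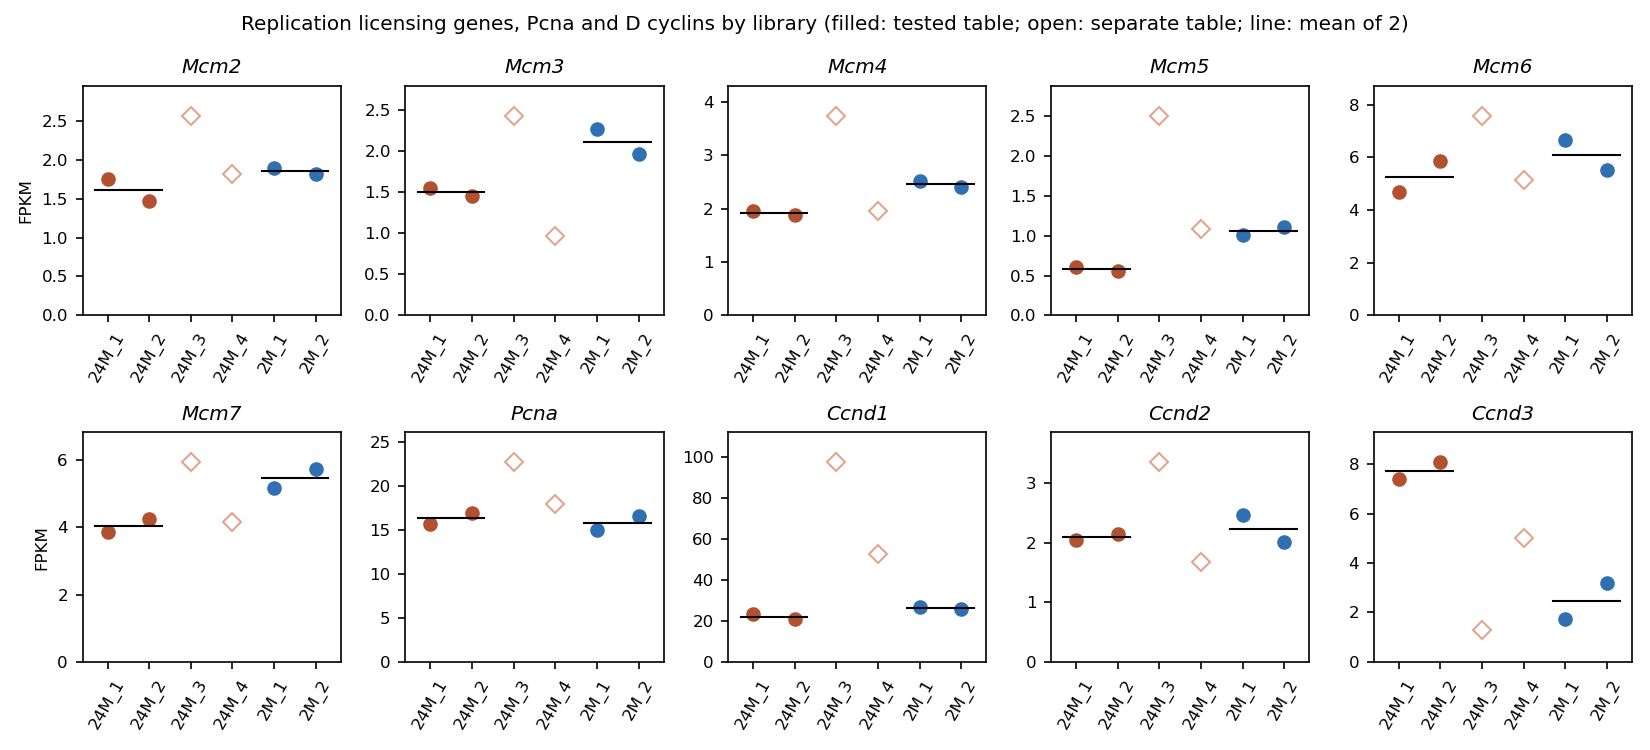
Level of each gene (FPKM, axis from 0) in each library. Filled circles are the libraries of the tested table with a line at the mean of each age, and open diamonds are 24M_3 and 24M_4 of the separate table. Both filled 24M points lie below both 2M points for Mcm2, Mcm3, Mcm4, Mcm5, Mcm7 and Ccnd1 and above them for Ccnd3.

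The helicase subunits lay low, between 0.557 and 6.64 FPKM in the tested table, where the median gene had 6.74 FPKM. Their mean log2(FPKM + 1) was 1.64 in 24M_1 and 1.66 in 24M_2, against 1.94 in 2M_1 and 1.89 in 2M_2. The difference of the age means was -0.27, or -0.25 without Mcm5. The log2 change was below 0 for all 6 subunits, and 56.3% of all genes tested were below 0.

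Gene coordinates are on GRCm38. Mcm7 (ENSMUSG00000029730, chromosome 5, 138164583 to 138172422, minus strand) had the smallest p of the subunits. Its levels were 3.87 and 4.24 FPKM in 24M_1 and 24M_2, against 5.17 and 5.73 FPKM in 2M_1 and 2M_2, and the ages did not overlap. On the log2 scale Mcm7 differed by -0.35 ± 0.10 (SE, n = 2 per age; 95% interval -0.60 to -0.10; limma adjusted p = 0.180). Mcm7 also hosts the microRNA genes Mir25, Mir93 and Mir106b, and it overlaps Cops6 and Ap4m1 on the other strand. Cops6, a COP9 signalosome subunit, had 54.3 and 53.1 FPKM in 24M_1 and 24M_2, against 52.2 and 55.1 FPKM in 2M_1 and 2M_2. Whether reads were counted by strand is not stated in the sources used here, so reads from the overlapping parts cannot be told apart.

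Mcm5 (ENSMUSG00000005410, chromosome 8, 75109569 to 75128439, plus strand) had the lowest level of the subunits in the tested table and did not pass. Its log2 change was the lowest of the 6 on the scale used here, but Mcm7 was lower than Mcm5 under quantile normalization (-0.31 for Mcm7 and -0.25 for Mcm5) and without 24M_2 (-0.41 for Mcm7 and -0.36 for Mcm5). It stood at 0.608 and 0.557 FPKM in 24M_1 and 24M_2, against 1.01 and 1.11 FPKM in 2M_1 and 2M_2. That is a difference of the means of -45.0%, and a log2 change of -0.38 with a 95% interval of -0.67 to -0.09 (limma adjusted p = 0.200). Since a pseudocount of 1 FPKM is close to these levels, the log2 change understates the ratio of the FPKM values.

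Mcm3 (ENSMUSG00000041859, chromosome 1, 20802968 to 20820312, minus strand) had 1.55 and 1.45 FPKM in 24M_1 and 24M_2, against 2.27 and 1.96 FPKM in 2M_1 and 2M_2. Its log2 change was -0.32 ± 0.11 (SE, limma adjusted p = 0.252). Mcm4 (ENSMUSG00000022673, chromosome 16, 15623897 to 15637400, minus strand), part of the catalytic Mcm4, Mcm6 and Mcm7 core, had 1.95 and 1.88 FPKM in 24M_1 and 24M_2, against 2.51 and 2.41 FPKM in 2M_1 and 2M_2. In both genes the gap between ages exceeded the gap within either age. The log2 change of Mcm4 was -0.25 ± 0.10 (SE, limma adjusted p = 0.303).

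For Mcm2 and Mcm6 the log2 change was -0.13 and -0.18, and it moved with single libraries. Mcm2 (ENSMUSG00000002870, chromosome 6, 88883474 to 88898780, minus strand), whose N-terminal tail also binds histones, had 1.75 and 1.475 FPKM in 24M_1 and 24M_2, against 1.90 and 1.81 FPKM in 2M_1 and 2M_2. In FPKM the ages did not overlap for Mcm2, but the gap between them was smaller than the gap within 24M. By rank among genes in both tables they did overlap, with percentiles of 21.0 and 17.1 in 24M_1 and 24M_2, against 20.3 and 20.4 in 2M_1 and 2M_2. Mcm6 (ENSMUSG00000026355, chromosome 1, 128331590 to 128359664, minus strand) had 4.67 and 5.84 FPKM in 24M_1 and 24M_2, against 6.64 and 5.51 FPKM in 2M_1 and 2M_2, and the ages overlapped. The limma adjusted p was 0.617 for Mcm2, with a 95% interval of the log2 change of -0.41 to 0.15, and 0.566 for Mcm6, with an interval of -0.52 to 0.16. The log2 change of Mcm2 was -0.21 without 24M_1 and -0.05 without 24M_2. That of Mcm6 was -0.04 without 24M_1, -0.31 without 24M_2, -0.06 without 2M_1 and -0.29 without 2M_2.

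**Figure D2:**
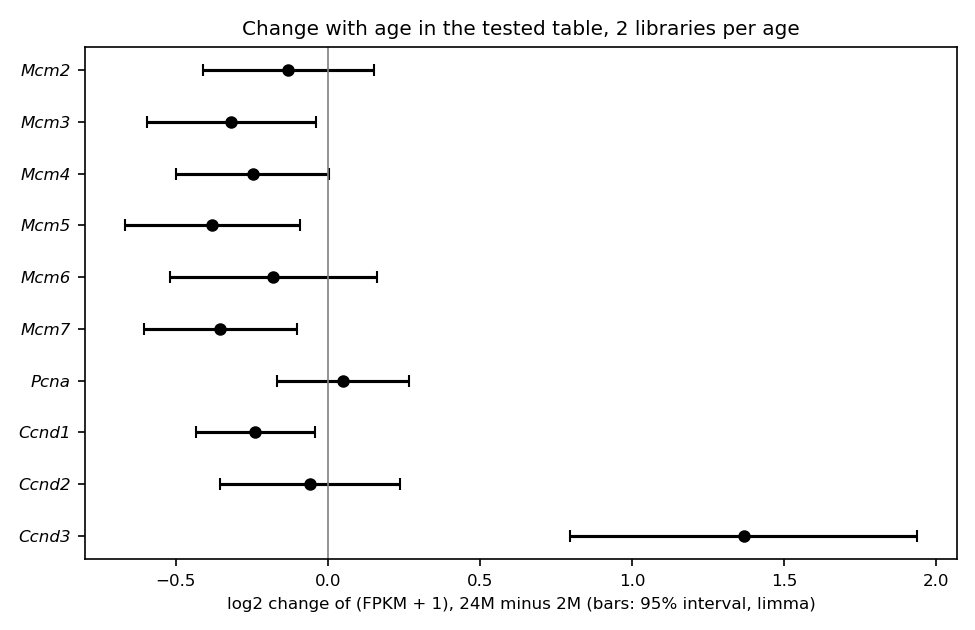
Log2 change of (FPKM + 1) from the limma fit over all genes, 24M minus 2M, with 95% intervals (2 libraries per age). The 6 Mcm genes lie between -0.38 and -0.13, Pcna, Ccnd1 and Ccnd2 between -0.24 and 0.05, and Ccnd3 at 1.37. The intervals are not adjusted for the number of genes.

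Although the subunits work at equal copy number in the complex, their transcripts did not stand at equal levels per length. Mcm6 and Mcm7 together held most of the summed FPKM. Mcm6 made up 32.5% and 37.8% of the sum in 24M_1 and 24M_2, against 34.1% and 29.7% in 2M_1 and 2M_2. Mcm5 made up the smallest share of the 6 subunits in the tested table, at 4.23% and 3.61% in 24M_1 and 24M_2, against 5.16% and 6.0% in 2M_1 and 2M_2. The order of the others was less clear, since Mcm2, Mcm3 and Mcm4 each held between 9.41% and 13.6% of the sum in these 4 libraries. The ratio of Mcm6 to Mcm5 was 7.68 and 10.5 in 24M_1 and 24M_2, against 6.60 and 4.96 in 2M_1 and 2M_2.

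In the separate table the aged libraries did not show the same levels. In 24M_3 all 6 subunits lay above both 2M libraries, and 46.6% of genes in both tables did so. In 24M_4, 4 of the 6 lay below both 2M libraries, against 52.5% of genes. The mean log2(FPKM + 1) of the 6 subunits was 2.26 in 24M_3 and 1.68 in 24M_4. The mean of 24M_4 was close to those of 24M_1 and 24M_2. Single subunits were less alike, since Mcm3 was lower in 24M_4 than in 24M_1 and 24M_2, and Mcm5 was higher. In all 6 subunits 24M_3 was above 24M_4, as in 63.7% of genes in both tables, with Mcm2 at 2.57 and 1.82 FPKM, Mcm3 at 2.43 and 0.969 FPKM, Mcm6 at 7.57 and 5.15 FPKM and Mcm7 at 5.93 and 4.16 FPKM. Mcm5 stood at 2.51 FPKM in 24M_3 and 1.08 FPKM in 24M_4, and Mcm4 at 3.74 and 1.95 FPKM. By rank among the 12546 genes in both tables, which does not depend on the scale of a table, Mcm5 was at percentile 5.38 and 3.55 in 24M_1 and 24M_2, 23.1 in 24M_3 and 13.6 in 24M_4, against 9.49 in 2M_1 and 11.7 in 2M_2. The ranks thus put 24M_1 and 24M_2 below, and 24M_3 and 24M_4 above, the 2M libraries for Mcm5. For Mcm7 the percentile was 39.4, 41.9, 48.6 and 43.5 in 24M_1 to 24M_4, against 45.9 in 2M_1 and 49.8 in 2M_2. Mcm6, below both 2M libraries in 24M_4 by FPKM, was not so by rank, at percentile 49.3, against 53.6 in 2M_1 and 48.7 in 2M_2.

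The promoters of Mcm genes are shown because they carry sites of the kind that E2F factors bind. RefSeq windows on GRCm38.p6, from 250 bases before to 50 after a start, were matched for 7 of the 10 genes; Mcm4, Ccnd1 and Ccnd2 were not matched. The motif searched on both strands has the letters TTTCCCGC, TTTCGCGC, TTTGCCGC or TTTGGCGC. It was found in 4 of the 7 genes (Mcm3, Mcm5, Mcm6 and Mcm7). Of all 32851 windows 2.26% held it, but this share is of windows, and a gene can have more than 1. Counted by gene, 396 tested genes outside the 10 held the motif, and 8603 tested genes had a window and no motif. Mcm2, Pcna and Ccnd3 held none of these letters in their windows. Capitals mark the motif, each sequence is written in the direction of its gene, and 4 of the matches overlap in pairs within 1 run of capitals. Positions count from 1 at the start, with the base before it at -1. Mcm7 held the motif in 1 of its 2 windows, and a further match there at position 17 is not printed.
Mcm6, chr1:128359725-128359835, minus strand, positions -130 to -20 from the start: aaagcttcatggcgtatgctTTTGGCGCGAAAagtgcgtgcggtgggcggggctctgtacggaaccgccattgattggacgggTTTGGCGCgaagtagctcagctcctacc
Mcm5, chr8:75109336-75109387, plus strand, positions -173 to -122 from the start: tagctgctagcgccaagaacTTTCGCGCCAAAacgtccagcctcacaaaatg
Mcm7, chr5:138172030-138172059, minus strand, positions -176 to -147 from the start: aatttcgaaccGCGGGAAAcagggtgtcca
Mcm3, chr1:20820265-20820294, minus strand, positions 19 to 48 from the start: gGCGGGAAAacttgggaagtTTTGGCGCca

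The 396 other tested genes with the motif had a median log2 change of -0.04, and for 30.6% of them both 24M libraries lay below both 2M libraries. In the 8603 tested genes with a window and no motif the median was -0.02 and the share 29.2%.

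Pcna (ENSMUSG00000027342, chromosome 2, 132249162 to 132253314, minus strand) stood well above the helicase genes and differed little between the ages. It had 15.7 and 16.9 FPKM in 24M_1 and 24M_2, against 14.9 and 16.5 FPKM in 2M_1 and 2M_2, and the ages overlapped. The log2 change was 0.05, with a 95% interval of -0.17 to 0.27 (limma adjusted p = 0.822), and it changed sign without 24M_2 and without 2M_1. The separate table gave 22.65 FPKM in 24M_3 and 17.9 FPKM in 24M_4, both above the 2M libraries, as for Ccnd1 and no other of the 10 genes, against 32.4% of genes in both tables. None of the 10 was below both 2M libraries in both, against 38.5% of genes. The pseudogene Pcna-ps2, with which Pcna can share reads, was listed at 1.32 and 0.977 FPKM in 24M_1 and 24M_2, against 0.965 and 1.13 FPKM in 2M_1 and 2M_2.

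Ccnd3 had the largest difference of the 10 genes, with a level that varied widely within ages as well. Ccnd3 (ENSMUSG00000034165, chromosome 17, 47505051 to 47599691, plus strand), the D cyclin best known from lymphocyte development and terminally differentiating tissues, had 7.41 and 8.07 FPKM in 24M_1 and 24M_2, against 1.72 and 3.21 FPKM in 2M_1 and 2M_2. Both 24M libraries lay above both 2M libraries, with means of 7.74 ± 0.467 FPKM in 24M and 2.47 ± 1.05 FPKM in 2M (SD, n = 2 each) and a fold of the means of 3.14. On the log2 scale this was 1.37 ± 0.22 (SE, n = 2 per age; 95% interval 0.80 to 1.94), and the limma adjusted p of 0.0671 misses the threshold (unadjusted p = 0.00172). Over the 11 alternatives run, the log2 change ran from 1.05 to 1.68 and the adjusted p from 0.0713 to 0.222. The separate table does not show a like level, with 1.29 FPKM in 24M_3, below both 2M libraries, and 5.01 FPKM in 24M_4, above both. By rank, Ccnd3 was at percentile 57.2, 59.7, 11.2 and 48.5 in 24M_1 to 24M_4, against 18.4 in 2M_1 and 33.8 in 2M_2. The ribosome assembly gene Bysl overlaps Ccnd3 on the other strand, and its levels were 9.24 and 8.999 FPKM in 24M_1 and 24M_2, against 7.14 and 8.41 FPKM in 2M_1 and 2M_2 (log2 change 0.21, limma adjusted p = 0.374).

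Ccnd1 (ENSMUSG00000070348, chromosome 7, 144929931 to 144939925, minus strand), the D cyclin that growth factor and Wnt signals induce in epithelia, had the highest level of the 10 genes. It stood at 23.2 and 21.0 FPKM in 24M_1 and 24M_2, against 26.7 and 25.8 FPKM in 2M_1 and 2M_2, without overlap. On the log2 scale Ccnd1 differed by -0.24 ± 0.08 (SE; 95% interval -0.43 to -0.04; limma adjusted p = 0.226). LTO1, which overlaps Ccnd1, had 1.77 and 2.27 FPKM in 24M_1 and 24M_2, against 2.997 and 2.87 FPKM in 2M_1 and 2M_2. In the separate table Ccnd1 was far higher, at 97.4 FPKM in 24M_3 and 52.6 FPKM in 24M_4. The direction against the 2M libraries therefore differed between the aged libraries of the tested table and those of the separate table, and this difference was not tested because the tables were made separately. By rank Ccnd1 was at percentile 83.3, 81.9, 96.4 and 92.5 in 24M_1 to 24M_4, against 85.6 and 85.0 in 2M_1 and 2M_2.

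Ccnd2 (ENSMUSG00000000184, chromosome 6, 127125162 to 127152193, minus strand) overlapped between the ages. It had 2.05 and 2.15 FPKM in 24M_1 and 24M_2, against 2.48 and 2.01 FPKM in 2M_1 and 2M_2 (log2 change -0.06, 95% interval -0.36 to 0.24, limma adjusted p = 0.846). Antisense genes overlap Ccnd2, and their reads could not be told apart either. The sign of Ccnd2 turned without 2M_1 and under quantile normalization. The separate table gave 3.35 FPKM in 24M_3 and 1.68 FPKM in 24M_4.

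In the tested table the D cyclin sums were close while the shares of Ccnd1 and Ccnd3 differed between the ages without overlap. The summed FPKM of the 3 genes was 32.7 and 31.3 in 24M_1 and 24M_2, against 30.9 and 31.0 in 2M_1 and 2M_2. Ccnd3 made up 22.7% and 25.8% of it in 24M_1 and 24M_2, against 5.58% and 10.3% in 2M_1 and 2M_2, while Ccnd1 made up 71.0% and 67.3%, against 86.4% and 83.2%. In the separate table the sum was 102 FPKM in 24M_3 and 59.3 FPKM in 24M_4, with a Ccnd3 share of 1.27% and 8.45%. These shares are within a library, so they do not depend on the scale of a table.

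**Figure D3:**
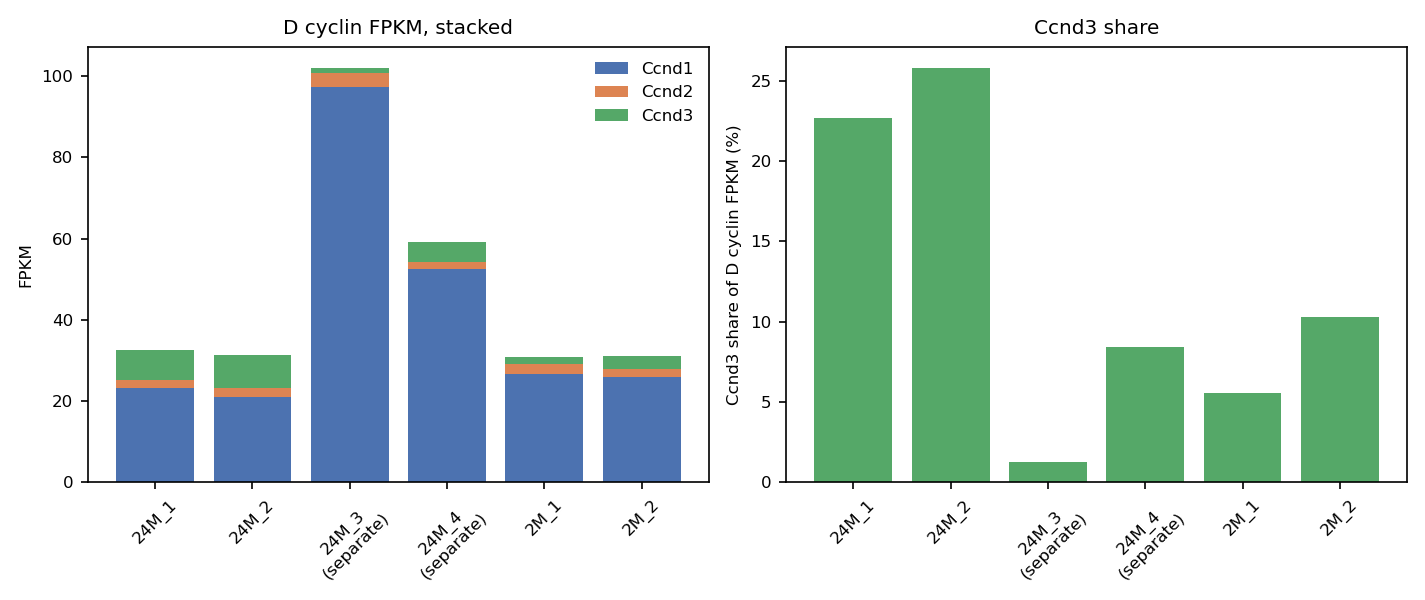
Left, FPKM of Ccnd1, Ccnd2 and Ccnd3 stacked for each library, with axes from 0. Right, Ccnd3 as a percent of the D cyclin sum. From 24M_1 to 24M_4 the share is 22.7%, 25.8%, 1.27% and 8.45%, against 5.58% and 10.3% in the 2M libraries.

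Other genes of the pathway were followed in 7 lists with 139 genes, none of them among the 10. The lists too were chosen with earlier results of these data known, so shares within them are a description. Of the 139 genes, 108 were in the tested table and 83 were tested. No list gene passed the threshold in either direction by limma, while at an unadjusted p below 0.05 there were 2 higher and 13 lower in 24M. The 13 are 15.7% of the 83, against 9.94% lower and 6.96% higher over all genes tested. For 37 of the 83, or 44.6%, both 24M libraries lay below both 2M libraries, and for 16 both lay above, against 29.6% below and 20.8% above over all genes tested. These shares of all genes apply to each list below. Without 3 genes that reached 1 FPKM in the 2M libraries alone, 34 of 80, or 42.5%, were lower without overlap, against the 28.8% given above for genes that did not pass through 1 age alone.

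Among genes that load and fire origins, 11 of 16 tested lay lower without overlap and 2 higher, with a median log2 change of -0.13. Without 2 genes that passed the filter through the 2M libraries alone, 9 of 14 lay lower, with a median of -0.11, against 28.8% of such genes. The GINS subunits Gins3 and Gins1, which join Cdc45 and the Mcm complex in the active helicase, had the smallest p in this list, but Gins3 passed the filter through the 2M libraries alone, which required it to be lower in 24M. Gins3 had 0.743 and 0.950 FPKM in 24M_1 and 24M_2, against 1.37 and 1.34 FPKM in 2M_1 and 2M_2 (limma adjusted p = 0.236). Gins1 had 0.879 and 1.04 FPKM in 24M_1 and 24M_2, against 1.51 and 1.41 FPKM in 2M_1 and 2M_2 (limma adjusted p = 0.2496). Gmnn, or geminin, which blocks the licensing factor Cdt1, had 8.46 and 6.77 FPKM in 24M_1 and 24M_2, against 9.85 and 8.87 FPKM in 2M_1 and 2M_2 (limma adjusted p = 0.344). Cdt1 itself stayed under the filter, at 0.880 and 0.564 FPKM in 24M_1 and 24M_2, against 0.848 and 0.877 FPKM in 2M_1 and 2M_2. Mcmbp, which binds Mcm subunits outside the loaded complex, had 7.03 and 6.68 FPKM in 24M_1 and 24M_2, against 6.03 and 6.61 FPKM in 2M_1 and 2M_2 (limma adjusted p = 0.630). The origin binding genes Orc3 and Orc6 had adjusted p of 0.305 each in the limma fit.

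Of 24 tested genes of the fork and of Pcna's partners, 9 lay lower and 2 higher without overlap, against 29.6% and 20.8% of all genes tested, with a median log2 change of -0.14. Rfc1, the large subunit of the clamp loader that opens the Pcna ring, had 7.12 and 6.88 FPKM in 24M_1 and 24M_2, against 9.77 and 8.70 FPKM in 2M_1 and 2M_2 (limma adjusted p = 0.161). Chaf1a, which Pcna recruits to assemble chromatin, had 1.17 and 0.960 FPKM in 24M_1 and 24M_2, against 1.63 and 1.77 FPKM in 2M_1 and 2M_2 (limma adjusted p = 0.198). The lagging-strand enzymes Fen1 and Lig1 had limma adjusted p of 0.483 and 0.514. Of 12 tested genes that modify or unload Pcna, 7 lay lower and 4 higher without overlap, against the same 29.6% and 20.8%, with a median of -0.20. The one with the smallest p was Hltf, a ubiquitin ligase that extends ubiquitin chains on Pcna, at 8.18 and 7.12 FPKM in 24M_1 and 24M_2, against 9.20 and 10.3 FPKM in 2M_1 and 2M_2 (limma adjusted p = 0.234). Of 7 tested genes of nucleotide supply, 2 lay lower, near the share of all genes, and 0 higher, with a median of -0.11, and Dut, which removes dUTP, was at 11.6 and 12.2 FPKM in 24M_1 and 24M_2, against 14.38 and 14.03 FPKM in 2M_1 and 2M_2 (limma adjusted p = 0.224).

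The kinase partners of the D cyclins differed little between the ages. Cdk4 had 7.84 and 7.49 FPKM in 24M_1 and 24M_2, against 7.66 and 7.27 FPKM in 2M_1 and 2M_2 (limma adjusted p = 0.883), and Cdk6 had an adjusted p of 0.931 in the same limma fit. In the separate table Cdk4 stood at 15.6 FPKM in 24M_3 and 16.5 FPKM in 24M_4. Of 17 tested genes in the list of CDK, RB and E2F partners, 5 lay lower, near the 29.6% of all genes tested, and 7 higher, against 20.8%, with a median log2 change of 0.03. Rbl1, the pocket protein p107 and itself a known E2F target, had 1.65 and 1.84 FPKM in 24M_1 and 24M_2, against 2.93 and 2.67 FPKM in 2M_1 and 2M_2 (log2 change -0.47, limma adjusted p = 0.125). Its separate levels were 3.96 FPKM in 24M_3, above both 2M libraries, and 1.29 FPKM in 24M_4, below both. Rb1 had 7.13 and 7.46 FPKM in 24M_1 and 24M_2, against 6.68 and 6.54 FPKM in 2M_1 and 2M_2 (limma adjusted p = 0.515).

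Of 6 tested CDK inhibitors, 2 lay lower and 1 higher without overlap, both near the 29.6% and 20.8% of all genes tested. The higher one was Cdkn1a, which encodes p21, with 3.70 and 6.06 FPKM in 24M_1 and 24M_2, against 1.86 and 2.20 FPKM in 2M_1 and 2M_2 (limma adjusted p = 0.131). Cdkn2b, an inhibitor of Cdk4 and Cdk6, had 0.923 and 2.23 FPKM in 24M_1 and 24M_2, against 3.84 and 3.63 FPKM in 2M_1 and 2M_2 (log2 change -0.93, limma adjusted p = 0.198). The 24M libraries differed widely in Cdkn2b, and without 24M_2 it passed, with a log2 change of -1.30 and a limma adjusted p of 0.0367. Cdkn1b, or p27, had 6.93 and 6.91 FPKM in 24M_1 and 24M_2, against 6.89 and 7.40 FPKM in 2M_1 and 2M_2 (limma adjusted p = 0.862), and 18.2 FPKM in 24M_3 and 13.4 FPKM in 24M_4 of the separate table.

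**Figure D4:**
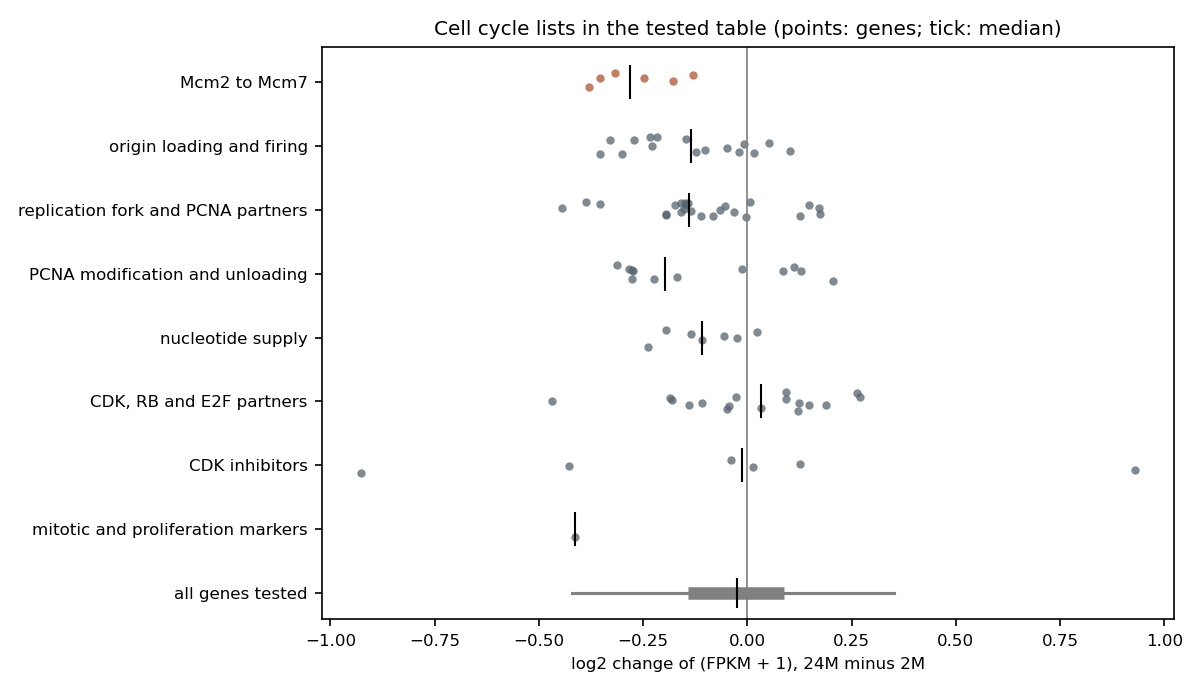
Log2 change of (FPKM + 1), 24M minus 2M, for the 6 Mcm genes and the tested genes of each list, with a tick at the median. For all 11437 genes tested the thick bar spans the interquartile range and the thin line the 5th to 95th percentile. The medians are -0.28 for the Mcm genes, -0.13, -0.14, -0.20, -0.11, 0.03 and -0.01 for the next 6 lists, and -0.02 for all genes tested.

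Proliferation markers were low in the tested table. Of 24 such genes 10 were in the tested table and 1, Mki67, was tested, and it passed the filter through the 2M libraries alone. Mki67, which encodes the proliferation antigen Ki-67, had 0.827 and 0.773 FPKM in 24M_1 and 24M_2, against 1.47 and 1.32 FPKM in 2M_1 and 2M_2 (log2 change -0.41, limma adjusted p = 0.168). The 10 markers in both tables summed to 5.13 and 4.597 FPKM in 24M_1 and 24M_2, against 7.06 and 8.11 FPKM in 2M_1 and 2M_2. Their sum was 14.8 FPKM in 24M_3 and 8.79 FPKM in 24M_4. Every gene of the tested table had a larger age mean of at least 0.501 FPKM. For Top2a, Ccna2, Birc5, Bub1b, Aurka, Tpx2 and Kif11 only the 2M mean reached this. If this level is a filter, these genes could be listed only by being lower in 24M. The sum of proliferation markers was highest in 24M_3, as were the Mcm levels, and 24M_3 was above every other library for 9 of the 10. Over genes in both tables, 46.6% were above both 2M libraries in 24M_3, and 63.7% were above 24M_4. The share of genes above every other library was not computed. Whether these markers and the Mcm levels are linked was not tested.

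Markers of other cell types moved between these libraries as well. The 8 macrophage and dendritic cell markers summed to 2208 FPKM in 24M_3 and 314 FPKM in 24M_4, and to 250 and 155 FPKM in 24M_1 and 24M_2, against 170 and 204 FPKM in 2M_1 and 2M_2. All 8 were higher in 24M_3 than in every other library, as were the 4 T and NK cell markers in both tables. These 4 summed to 23.3 FPKM in 24M_3, 4.54 FPKM in 24M_4 and 2.05 and 3.13 FPKM in 24M_1 and 24M_2, against 1.42 and 1.78 FPKM in 2M_1 and 2M_2. The share of all genes that were highest in 24M_3 was not computed. Of genes in both tables, 46.6% were above both 2M libraries in 24M_3, and 63.7% were above 24M_4. Cd74 held most of each macrophage and dendritic cell sum in the tested table, and it overlapped between the ages. Of these 8 markers, 4 (C1qa, C1qb, C1qc and Adgre1) were higher in 24M_1 and 24M_2 without overlap, and 0 were lower. C1qa alone of the 8 passed the limma threshold, higher in 24M (log2 change 0.85, limma adjusted p = 0.0215). Within the tested table, the 7 endothelial markers summed to 154 and 139 FPKM in 24M_1 and 24M_2, against 189 and 173 FPKM in 2M_1 and 2M_2. Plvap held most of each of these sums. Of the 7, 4 were lower without overlap and 0 higher, against 29.6% and 20.8% of all genes tested. Kdr, Egfl7 and Flt1 overlapped between the ages. The 6 urothelium markers summed to 0.974 FPKM in 24M_1, where Upk1b, Upk2 and Upk3a were listed at 0, and to 12.6 FPKM in 24M_2, against 29.0 and 23.1 FPKM in 2M_1 and 2M_2. The 5 red blood cell markers summed to 23.4 and 48.6 FPKM in 24M_1 and 24M_2, against 196.5 and 155.5 FPKM in 2M_1 and 2M_2. Their sums in the separate table were 199.9 FPKM in 24M_3 and 167.8 FPKM in 24M_4, neither below both 2M libraries. The 4 adipocyte markers in both tables summed to 0.484 and 0.3455 FPKM in 24M_1 and 24M_2, against 16.2 and 22.5 FPKM in 2M_1 and 2M_2, and the adipocyte genes Adipoq and Cfd were listed at 0 in both 24M libraries. All 5 adipocyte markers tested passed the limma threshold, lower in 24M, and each had passed the filter through the 2M libraries alone. The 3 B and plasma cell markers in both tables summed to 17.9 and 13.9 FPKM in 24M_1 and 24M_2, 192 FPKM in 24M_3 and 65.0 FPKM in 24M_4, against 1.48 and 2.57 FPKM in 2M_1 and 2M_2. Most of the 24M sums was Jchain, at 16.7 and 12.3 FPKM in 24M_1 and 24M_2 and 179 FPKM in 24M_3. Mzb1 had 0.654 and 1.33 FPKM in 24M_1 and 24M_2, against 0.448 and 0.552 FPKM in 2M_1 and 2M_2. Cd79b overlapped between the ages. Jchain, which joins secreted immunoglobulin units, rose in 24M by 2.97 on the log2 scale (limma adjusted p = 0.00844). These calls, like all others, were lost without 2M_1 and without 2M_2. The part of these cell types in the levels of the Mcm genes, Pcna and the D cyclins was not tested.

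Over the 4 libraries of the tested table many genes had a profile like the Mcm mean. By the root-mean-square difference of centred log2(FPKM + 1), the 5 closest were Dzip3, Pigx, Epb41l2, Zfp950 and Gimap4, at 0.0067 to 0.0119, and 334 genes lay within 0.05.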

How the data were processed

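The authors deposited gene-level FPKM in 2 tables, per the file headers, one with 24M_1, 24M_2, 2M_1 and 2M_2 and one with 24M_3 and 24M_4. The submitters' processing notes name the tools featureCounts 1.5.0-p3, HISAT2 2.0.5 and DESeq2 1.20.0 and the build mm10 without saying what each did. How the FPKM were made, the annotation, any strand setting and the filter were not given in the sources used here. For every gene of the table with both ages the larger age mean was at least 0.501 FPKM. Depth is unknown, so no counting interval was possible. Groups come from sample titles. A gene was tested if 2 or more of the 4 libraries reached 1 FPKM, with limma 3.58.1 in R 4.3.3 on log2(FPKM + 1), in a model of age alone with intensity trend, robust variance and Benjamini-Hochberg adjustment over 11437 genes. Such fold changes understate changes of low genes. The fit was tested on simulated data. Coordinates are from GENCODE M21 on GRCm38, the assembly of mm10. The 10 genes and the lists were chosen with earlier results of these data known. Named list genes are those with the smallest p, up to 4 a list, and genes fixed by role. The text gives part of them. Alternatives were other pseudocounts, filters, scalings and variance models, each library left out, and the replicate number as a block.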

Additional observations from a re-analysis of the deposited data

Results flagged for a closer look

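Mcm4 in 24M_3, at 3.74 FPKM, lay far above the other 24M libraries, whose values were 1.95, 1.88 and 1.95 FPKM. The gap took up 0.960 of the group's range, above Dixon's 95% critical value for 4 samples. The extreme 24M library was 24M_3 in all 10 genes, as the lowest for Ccnd3 and the highest for the others. Its extreme position was thus not particular to Mcm4. In the genes other than Mcm4 the gap stayed below that critical value, from 0.548 of the range for Ccnd3 to 0.821 for Mcm7. Chance gives a gap above that critical value in about 1 in 20 groups, 10 genes were looked at, and 24M_3 comes from a separately made table.

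Ccnd1 and Pcna were above both 2M libraries in the data that entered no test of age. Ccnd1 stood at 97.4 FPKM in 24M_3 and 52.6 FPKM in 24M_4, and Pcna at 22.65 and 17.9 FPKM. Among genes in both tables, 32.4% were likewise above both 2M libraries in 24M_3 and 24M_4. The difference between tables was not tested.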

How the results depend on the processing

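None of the 10 genes passed the threshold under any of the 11 alternatives run, and Mcm5 could not be tested without 2M_1 or without 2M_2, when it missed the filter. The sign held for Ccnd1, Ccnd3 and the 6 Mcm genes under each alternative that tested them. With a library left out, the log2 change of Pcna ran from -0.0187 without 2M_1 to 0.12 (-0.0019 without 24M_2) and that of Ccnd2 from -0.16 to 0.0447 without 2M_1, and Ccnd2 was at 0.0131 under quantile normalization. The mean log2 change of the Mcm genes was -0.40 with a pseudocount of 0.1 FPKM, -0.32 with 0.5 FPKM and -0.20 under quantile normalization. By limma, 3 of the 10 genes had an unadjusted p below 0.05 under quantile normalization. There were 6 without trend or robust variance, against 5 in the fit used above. Calls over all genes numbered 108 without trend or robust variance and 0 to 126 with a library left out. Calls among CDK inhibitors were 0 to 1 with a library left out. With the replicate number as a block 43 genes were called, 36 of them among the 180, and 0 of the 10 genes passed. Same-numbered libraries did not deviate together (correlation -0.06 over 11437 genes) and share only a number. With 1 library left in an age, the fit assumes that it varies like the other pair. The cause of these shifts was not tested.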
